A study of Canis lupus familiaris with 18 samples.

Results

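The genes described here are 10 markers of heart macrophages, measured in dogs with pacing-induced heart failure (HF): MRC1, CD163, CLEC12A, CD68, CSF1R, CD14, LY96, CD86, LYZ and F13A1. They were chosen by gene symbol, as the probe sets whose only annotated symbol is one of these names, which gave 20 of the 42924 probe sets of the array. The data are 18 Affymetrix Canine_2 arrays of total RNA, 3 for each of 6 groups. The groups are right atrium (RA) and right ventricle (RV), each from control dogs, from dogs with early HF after 2 weeks of ventricular tachypacing, and from dogs with late HF after 5 weeks of it (2 to 3 and 5 to 6 weeks in the protocol text). The dogs were adult mongrels or beagles, with the breed of each not stated. The pacemaker drove the ventricles in both HF stages, and the labels give the control dogs no treatment. The replicates are called biological, but no label ties an array to an animal, so the p-values cover only the spread from array to array, which may be partly technical.

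Macrophages are the phagocytes that live in the walls of the atria and ventricles, where they clear dying cells and debris and take part in repair. Some are long-lived residents, which usually carry scavenger receptors such as MRC1 and CD163, and others arise from blood monocytes that enter the heart during stress. They depend on signals through the receptor CSF1R, sense bacterial and tissue-damage products through CD14 and LY96 with Toll-like receptor 4, and talk to T cells through CD86. In whole tissue, more macrophages and more RNA per macrophage cannot be told apart.

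Signals are log2 values, and a difference is a difference of log2 group means with its standard error (SE) from a limma fit over all groups. "Called" means an adjusted p under 0.05 (limma, Benjamini-Hochberg over 25752 probe sets). Each gene is represented by its probe set of highest mean signal, and all 10 genes, with 18 of their 20 probe sets, passed a filter that left out the 40% of probe sets of lowest signal (mean under 5.31). LY96 passed with a mean over all arrays just above that limit. Its controls lay below it in both chambers, as did its mean in RV early HF (4.83). LY96 was thus tested only through the HF groups where it was high. Its calls and its place in the counts add no separate support, and the size of its difference from control is uncertain.

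The library labelled RA late 3 stood apart. The ventricular light chain MYL2 had a signal of 14.17 there, against means of 7.31 in RA controls and 14.15 in RV controls, and the atrial light chain MYL4 had 11.65, against 14.01 and 8.79. MYL3 (13.89), MYL7 (11.65), PAM (10.61) and IRX5 (8.10) lay in that library near their RV control means of 14.06, 11.99, 10.66 and 7.94. DKK3 (9.17) lay between its chamber means of 12.63 and 6.82, and GJA5 (8.74) lay nearer to its RA control mean of 9.04. RA late 1 and RA late 2 had MYL2 signals of 10.99 and 10.59. Results are given with all 18 arrays and with the 17 arrays that leave RA late 3 out. All groups share the estimate of spread, so leaving it out alters the p-values of every comparison. Median signal per array lay between 5.65 and 5.75, and the 3' minus 5' signal of GAPDH, a sign of RNA quality, between 1.03 (RA late 3) and 1.62.

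In early HF of RA, 9 of the 10 genes had all 3 HF arrays above all 3 control arrays, as did 8.66% of the 10988 genes tested. CSF1R was the exception. The median difference over the 10 was 0.95, from -0.02 (CSF1R) to 1.98 (CLEC12A), against -0.02 over all genes, and 1.00% of all genes had a difference above 0.95. With all arrays 0 of the 10 were called, as against 0.291% of all genes called higher, while 9 had an unadjusted p under 0.05 (6.08% of all genes, higher). Without RA late 3, 4 were called higher, CLEC12A, LYZ, CD86 and MRC1, against 1.63% of all genes. The calls of CLEC12A, LYZ and CD86 were kept when any further array of the RA control or early groups was left out, with adjusted p up to 0.0354 by limma.

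**Figure D1:**
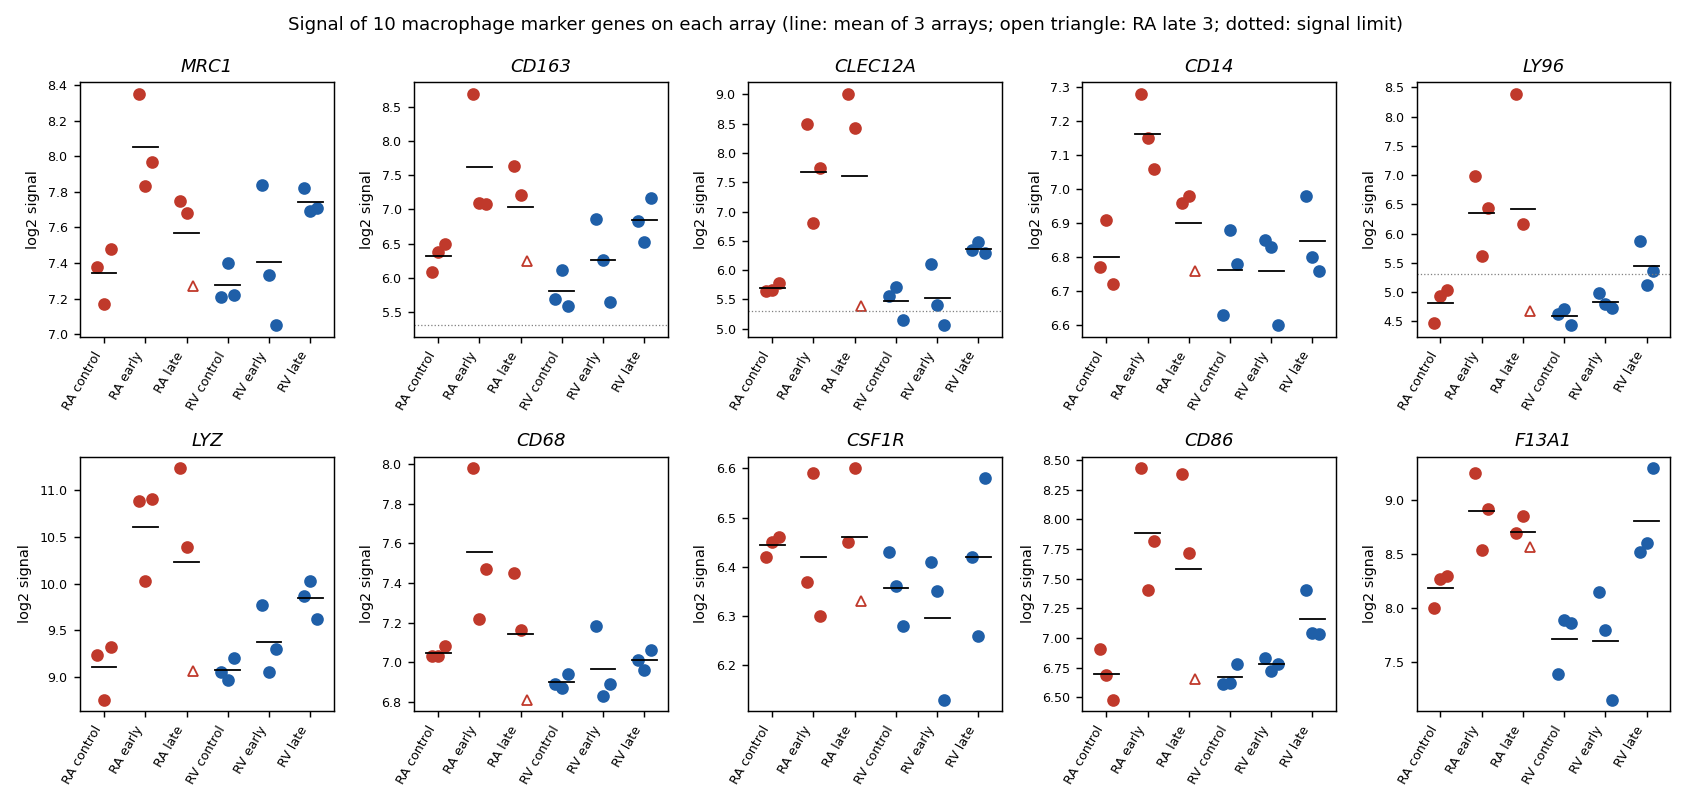
Log2 signal of each of the 10 genes (panels, each with its own vertical axis) on every array, by chamber and stage (horizontal axis); lines are means of 3 arrays, the open triangle is the library RA late 3 and the dotted line is the signal limit of 5.31. In RA early HF every array lies above every control array for all genes but CSF1R, and RA late 3 lies near the RA controls for most genes.

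MRC1 encodes the mannose receptor, which takes up glycoproteins and collagen fragments. Its signals were 7.38, 7.17 and 7.48 in RA controls, 8.35, 7.83 and 7.97 in RA early HF and 7.75, 7.68 and 7.27 in RA late HF. In RV they were 7.21, 7.40 and 7.22 in controls, 7.84, 7.33 and 7.05 in early HF and 7.82, 7.69 and 7.71 in late HF. The RA early and the RV late groups thus lay clear of their controls, whereas RV early HF spanned them. The RA early difference was 0.71 (SE 0.18, adjusted p = 0.0731 by limma, n = 3 per group), a 1.63-fold higher level, and it was called without RA late 3 (adjusted p = 0.0314). That call was lost again (adjusted p = 0.136) when RA control 2 was also left out, and on leaving out RA control 1, RA control 3, RA early 1 or RA early 3. The RV late difference was 0.46 (SE 0.18, adjusted p = 0.476).

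CD163 is the receptor that clears complexes of haemoglobin and haptoglobin. It measured 6.09, 6.38 and 6.49 in RA controls, 8.69, 7.10 and 7.08 in RA early HF and 7.64, 7.21 and 6.25 in RA late HF. The RV values were 5.69, 6.12 and 5.59 in controls, 6.86, 6.26 and 5.65 in early HF and 6.83, 6.52 and 7.17 in late HF. RA early 1 stood far above the other early arrays, and all RV late arrays lay above all RV controls. The differences from control were 1.30 in RA early HF (SE 0.40, adjusted p = 0.134) and 1.04 in RV late HF (SE 0.40, adjusted p = 0.474), neither of them called. In RA late HF the difference was 0.71 (SE 0.40) with all arrays and 1.11 (SE 0.40, adjusted p = 0.15 by limma) without RA late 3.

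CLEC12A, an inhibitory C-type lectin receptor of myeloid cells, had one of the widest ranges over the arrays, with LY96. In RA its signals were 5.64, 5.67 and 5.78 in controls, 8.49, 6.80 and 7.74 in early HF, and 9.01, 8.42 and 5.39 in late HF. In RV they were 5.56, 5.72 and 5.15 in controls, 6.11, 5.41 and 5.06 in early HF, and 6.34, 6.48 and 6.29 in late HF. RA late 3, the lowest of the RA arrays, lay more than 3 log2 units below RA late 1 and RA late 2. The RA early difference was 1.98, a 3.94-fold higher level (SE 0.63, adjusted p = 0.143 with all arrays; SE 0.32, adjusted p = 0.00476 without RA late 3). In RA late HF it was 1.91 (SE 0.63, adjusted p = 0.274) with all arrays and 3.02 (SE 0.36, adjusted p = 0.00246), or 8.10-fold, without RA late 3, when the group held 2 arrays. The RV late difference of 0.89 (SE 0.63, adjusted p = 0.673) was not called, although the groups did not overlap.

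CD14 and LY96 (also called MD-2) hand bacterial lipopolysaccharide to Toll-like receptor 4. CD14 spanned a narrow range, with 6.77, 6.91 and 6.72 in RA controls, 7.28, 7.15 and 7.06 in RA early HF and 6.96, 6.98 and 6.76 in RA late HF. Its RV signals were 6.63, 6.88 and 6.78 in controls, 6.85, 6.83 and 6.60 in early HF and 6.98, 6.80 and 6.76 in late HF, all overlapping. CD14 was 0.36 higher in RA early HF (SE 0.11, adjusted p = 0.111; 0.065 without RA late 3). LY96 measured 4.46, 4.93 and 5.03 in RA controls, 6.98, 5.62 and 6.44 in RA early HF and 8.39, 6.17 and 4.68 in RA late HF. In RV it measured 4.63, 4.71 and 4.43 in controls, 4.98, 4.8 and 4.72 in early HF and 5.87, 5.12 and 5.36 in late HF. Every RA early array was above the signal limit and every control below it. Of the RA late arrays, number 1 was the highest of all 18 and number 3 lay among the controls. In RA early HF, LY96 had a difference of 1.54 (SE 0.59, adjusted p = 0.234; 0.0508 without RA late 3). The RA late difference was 1.61 (SE 0.59, adjusted p = 0.319), and 2.47 without RA late 3 (SE 0.46, adjusted p = 0.0199 by limma).

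LYZ encodes lysozyme, the secreted enzyme that cuts bacterial cell walls, made by macrophages and neutrophils alike. Its signals in RA were 9.24, 8.76 and 9.32 in controls, 10.88, 10.03 and 10.90 in early HF, and 11.23, 10.39 and 9.07 in late HF. In RV they were 9.06, 8.97 and 9.20 in controls, 9.77, 9.05 and 9.30 in early HF, and 9.87, 10.03 and 9.62 in late HF. RA early HF and RV late HF lay clear of the controls of their chamber. LYZ was 2.82-fold higher in RA early HF, a difference of 1.497 (SE 0.38, adjusted p = 0.0717 with all arrays; SE 0.25, adjusted p = 0.00587 without RA late 3). Without that library it was also called in RA late HF, with a difference of 1.70 (SE 0.28, adjusted p = 0.0147 by limma). In RV late HF the difference was 0.76 (SE 0.38, adjusted p = 0.559).

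CD68 is a glycoprotein of the lysosome membrane, abundant in phagocytes. It measured 7.03, 7.03 and 7.08 in RA controls, 7.98, 7.22 and 7.47 in RA early HF and 7.45, 7.16 and 6.81 in RA late HF. In RV it measured 6.89, 6.87 and 6.94 in controls, 7.18, 6.83 and 6.89 in early HF and 7.01, 6.96 and 7.06 in late HF. The controls of each chamber lay within 0.1 of one another, and the RV late arrays lay just above theirs. The RA early difference was 0.51 (SE 0.17, adjusted p = 0.158), and the RV late difference was 0.11 (SE 0.17, adjusted p = 0.856).

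CSF1R, the receptor for the growth factors CSF1 and IL34, showed no separation of the groups. Its signals were 6.42, 6.45 and 6.46 in RA controls, 6.37, 6.59 and 6.30 in RA early HF and 6.45, 6.60 and 6.33 in RA late HF. In RV they were 6.43, 6.36 and 6.28 in controls, 6.41, 6.35 and 6.13 in early HF and 6.42, 6.26 and 6.58 in late HF. The RA early difference was -0.02 (SE 0.11, adjusted p = 0.962), with a 95% interval from -0.25 to 0.20. The estimate for CD14, the smallest of the other 9 at 1.29-fold, lay above that interval. The CD14 estimate has a spread of its own, and CSF1R and CD14 were not tested against each other.

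CD86 is the ligand through which antigen-presenting cells costimulate T cells. It measured 6.91, 6.69 and 6.48 in RA controls, 8.43, 7.40 and 7.82 in RA early HF and 8.38, 7.72 and 6.65 in RA late HF. In RV it measured 6.61, 6.62 and 6.78 in controls, 6.83, 6.72 and 6.78 in early HF and 7.40, 7.04 and 7.03 in late HF. RA early HF and RV late HF were again separate from their controls, and RA late 3 lay among the RA controls. The RA early difference was 1.19, or 2.28-fold (SE 0.31, adjusted p = 0.0789 with all arrays; SE 0.21, adjusted p = 0.00741 without RA late 3). The RA late difference was 0.89 (SE 0.31, adjusted p = 0.30), and 1.36 without RA late 3 (SE 0.24, adjusted p = 0.0151 by limma).

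F13A1 encodes the A chain of coagulation factor XIII, a transglutaminase that resident macrophages hold in the cell. Its RA signals were 8.0, 8.27 and 8.29 in controls, 9.25, 8.53 and 8.91 in early HF and 8.69, 8.85 and 8.56 in late HF. Its RV signals were 7.39, 7.89 and 7.86 in controls, 8.15, 7.79 and 7.15 in early HF and 8.52, 8.60 and 9.29 in late HF. It was the single gene of the 10 for which the RA late arrays, RA late 3 included, all lay above the RA controls. RA late 3 had most chamber markers near their RV control means, and its F13A1 signal of 8.56 also lay within the RV late range of 8.52 to 9.29. F13A1 also had the largest RV late difference of the 10, 1.09 or 2.13-fold (SE 0.25, unadjusted p = 0.000436, adjusted p = 0.386; 0.0871 without RA late 3). Its RA differences were 0.71 in early HF (SE 0.25, adjusted p = 0.188) and 0.51 in late HF (SE 0.25, adjusted p = 0.44).

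**Figure D2:**
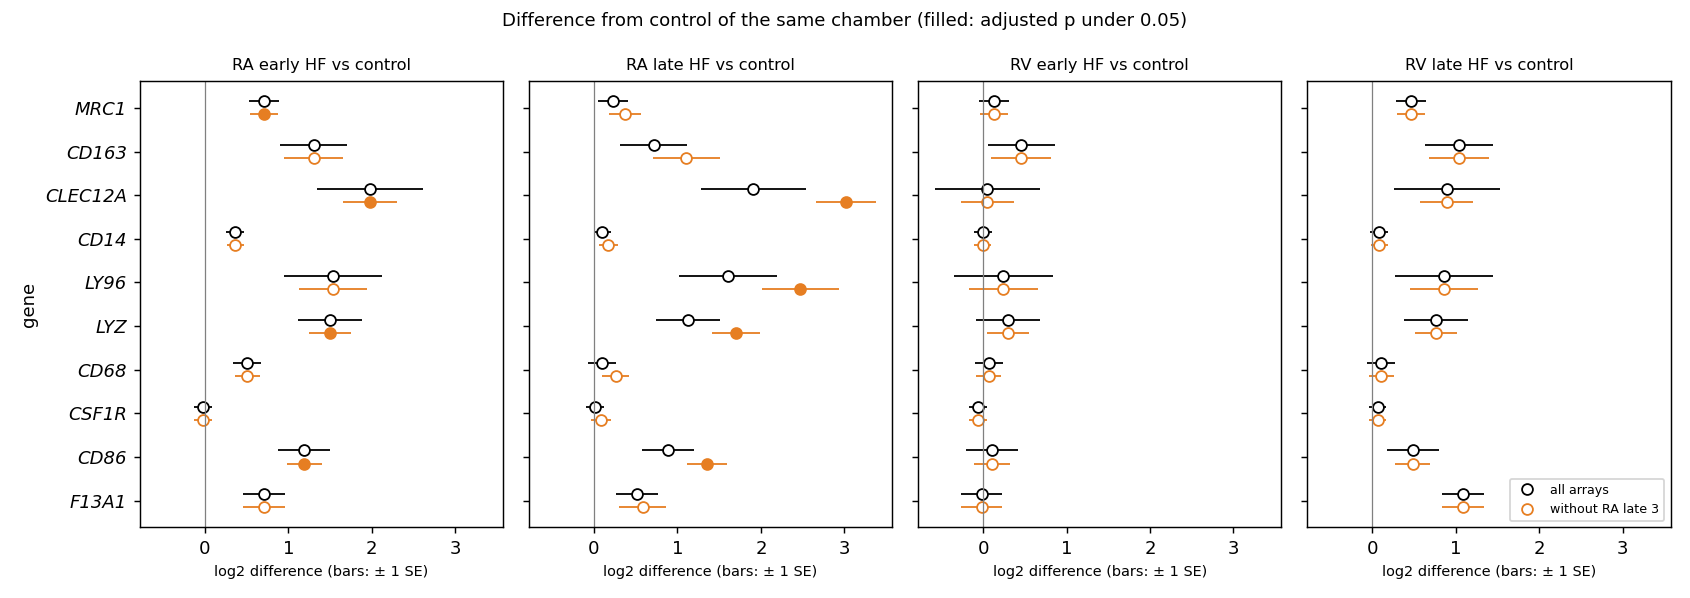
Log2 difference from the controls of the same chamber (horizontal axis, bars are 1 SE either side) for the 10 genes (vertical axis) in the 4 comparisons of HF with control, with all arrays (black) and without RA late 3 (orange); filled points have an adjusted p under 0.05. Filled points occur in both RA comparisons, for CLEC12A, LYZ and CD86 in both, for MRC1 in early HF and for LY96 in late HF, and all of them are in the fit without RA late 3.

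The probe sets of a gene did not always give the same picture. The other probe sets of MRC1 showed larger RA early differences than the brightest, 1.65 (SE 0.42, adjusted p = 0.073) and 1.38 (SE 0.45). The first of these measured 6.35, 6.39 and 6.29 in RA controls and 8.92, 7.37 and 7.70 in RA early HF, a difference called without RA late 3 (adjusted p = 0.0168 by limma). The other LYZ probe set agreed in size with the brightest, at 1.54 (SE 0.42). The other CLEC12A probe set gave 0.88 (SE 0.36), less than the 1.98 of the brightest. Of the 3 further CD163 probe sets, 2 gave 0.91 (SE 0.21, adjusted p = 0.0568; 0.0209 without RA late 3, by limma) and 0.54 (SE 0.16), and 1 of mean signal under the limit gave 0.01. The other probe sets of CD68 and F13A1 gave 0.10 (SE 0.11) and 0.09 (SE 0.11), with overlapping groups. CSF1R showed the opposite case: its dim probe set, below the signal limit and not tested, measured 4.65, 4.98 and 4.63 in RA controls and 5.36, 5.08 and 5.10 in RA early HF, which did not overlap. CD86, CD14 and LY96 had 1 probe set each. Levels of different probe sets cannot be compared with each other, and which transcripts each one binds was not analysed here.

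**Figure D3:**
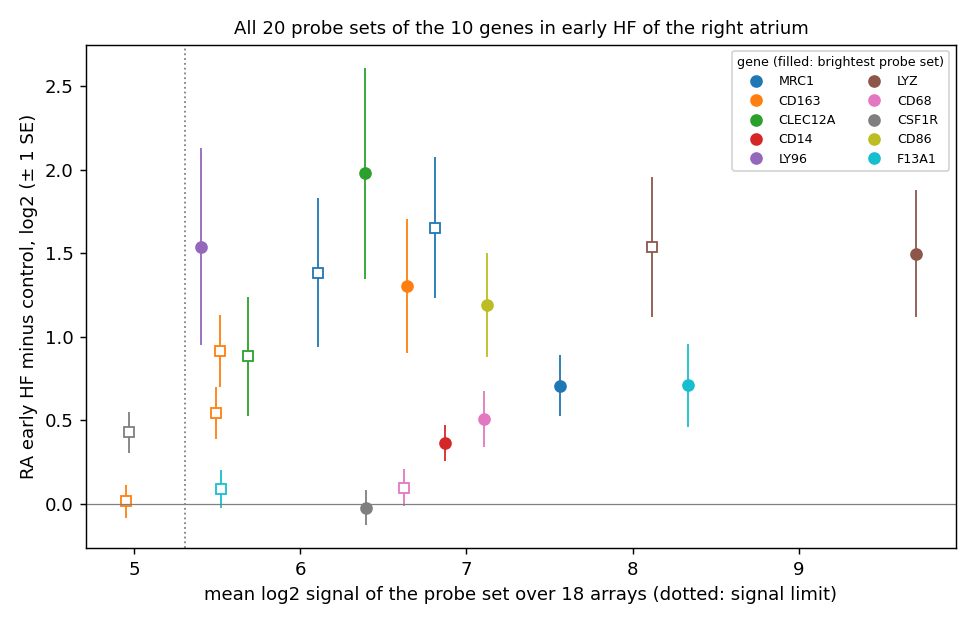
RA early HF minus control (log2, bars are 1 SE either side, all arrays) for each of the 20 probe sets of the 10 genes against its mean log2 signal over the 18 arrays; filled circles are the brightest probe set of a gene, open squares the others, and the dotted line is the signal limit of 5.31. The probe sets of LYZ lie close together (1.497 and 1.54), and those of MRC1, CD163, CLEC12A, CD68, CSF1R and F13A1 lie apart.

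In late HF of RA, 1 of the 10 genes (F13A1) had groups that did not overlap with all arrays, against 6.11% of all genes, and the median difference was 0.61 (-0.00 over all genes). With all arrays 0 were called (0.0182% of all genes were called higher), and 4 had an unadjusted p under 0.05 (5.96% of all genes, higher). RA late 3 was the lowest of the 6 RA HF arrays for 8 of the 10 genes, F13A1 and CSF1R being the exceptions. It lay within the range of the RA controls for MRC1, LYZ, CD86, CD163, CD14 and LY96. Without it, 9 of 10 genes had groups that did not overlap, against 16.5% of all genes for 2 arrays against 3. The median difference was then 0.84, 5 had an unadjusted p under 0.05 (11.4% of all genes, higher), and CLEC12A, LYZ, CD86 and LY96 were called higher (1.04% of all genes). The call of LY96 adds no separate support, since LY96 was tested only through the HF groups where it was high. These 4 calls rest on 2 arrays: with RA late 1 left out as well, the group held 1 array, and the CLEC12A difference was 2.72. Leaving out RA control 3 instead lost the calls of CD86 (adjusted p = 0.0559 by limma) and LY96 (adjusted p = 0.051).

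In early HF of RV, none of the 10 genes was called with all arrays (0.091% of all genes were called higher) or without RA late 3 (0.382%). By unadjusted p under 0.05 the counts were 0 with all arrays (3.9% of all genes, higher) and 0 without RA late 3 (4.95%). Their median difference was 0.09, and 24.9% of all genes had a larger one. Only LY96 had groups that did not overlap (7.02% of all genes), with all 6 arrays below the signal limit. RV early 1 was the highest of the 3 RV early arrays for all 10 genes. In late HF of RV all 10 differences were positive, from 0.06 (CSF1R) to 1.09 (F13A1) with a median of 0.62, against 46.6% of all genes with a positive difference. The groups did not overlap for 8 of the 10 (9.48% of all genes), all but CSF1R and CD14. With all arrays limma called 0 of the 10 and 0% of all genes in this comparison, while MRC1, CD163 and F13A1 had an unadjusted p under 0.05 (4.3% of all genes, higher). The count of such genes without RA late 3 was 6 (6.07%), and 0 were called (0.118% of all genes called higher).

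Late HF was also set against early HF within each chamber. In RV all 10 genes had a positive late minus early difference, with a median of 0.42, and for 4 the late arrays all lay above the early arrays (6.3% of all genes). The largest was that of F13A1, 1.11 (SE 0.25, unadjusted p = 0.000379, adjusted p = 0.395). With all arrays 0 of the 10 were called, as were 0% of all genes, and 1 had an unadjusted p under 0.05 (2.28% of all genes, higher). Without RA late 3 there were 2 such genes (3.5%) and again 0 calls. In RA the median was -0.28 with all arrays, 2 genes had late arrays all below the early arrays (2.3% of all genes), and 3 (MRC1, CD68 and CD14) had lower signals at an unadjusted p under 0.05 (2% of all genes, lower) with 0 called (0% of all genes). That median was -0.01 without RA late 3, where 0 were called and none was lower at an unadjusted p under 0.05 (2.07% of all genes). CLEC12A alone was then higher in late HF at that threshold (6.45% of all genes), by 1.04 (SE 0.36, adjusted p = 0.507 by limma).

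Both stages were also pooled. In RA the median difference of both stages from control was 0.81, and 0 were called with all arrays (0.137% of all genes called higher), with 8 at an unadjusted p under 0.05 (6.88%). Leaving out RA late 3 gave 5 calls, LYZ, CLEC12A, CD86, CD163 and LY96 (2.89% of all genes), with 9 at an unadjusted p under 0.05 (10.4%). In RV the median was 0.38, and 0 were called with all arrays (0% of all genes) or without RA late 3 (0.237%), with 2 at an unadjusted p under 0.05 (4.7%) with all arrays.

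Between the chambers of control hearts, all 10 RA minus RV differences were positive, with a median of 0.12 (44.7% of all genes were positive), but 0 were called (1.62% of all genes were called higher in RA) and 0 had an unadjusted p under 0.05 (7.95% of all genes, higher). F13A1 (0.47, SE 0.25, adjusted p = 0.372 by limma) and CD68 had RA control arrays that all lay above the RV control arrays, as did 12.8% of all genes. The difference between the chambers in the HF effect was tested as an interaction. For early HF it was positive (larger in RA) for all 10 genes, with a median of 0.79, but 0 were called with all arrays (0% of all genes) or without RA late 3 (0% likewise), and 5 had an unadjusted p under 0.05 with all arrays (2.14% of all genes, higher). The largest, that of CLEC12A, was 1.93 (SE 0.89, adjusted p = 0.902; SE 0.45, adjusted p = 0.219 without RA late 3). For late HF the median was -0.00 with 5 of 10 positive, 0 called (0% of all genes) and 0 at an unadjusted p under 0.05 (3.76% of all genes, higher). The median without RA late 3 was 0.12, with 4 at an unadjusted p under 0.05 (3.76% of all genes, higher) and 0 called (0% of all genes). These fits do not pair the chambers, although same-numbered RA and RV arrays deviated together in controls and early HF. With the pairs as a block and all arrays, limma again called 0 of the 10 for early HF (0% of all genes), and the CLEC12A value of 1.93 had an SE of 0.71 and an adjusted p of 0.60.

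Most of the 10 genes varied together among the arrays of a group. Over the 45 pairs of genes, the correlation of deviations from the group mean had a median of 0.59 over 18 arrays (from -0.03 to 0.89), with 44 of 45 positive. Without RA late 3 it was 0.54 (from -0.52 to 0.87), with 39 of 45 positive. The points share their arrays, so these are descriptions. CSF1R stood aside, with a correlation of 0.24 to the mean of the other members, and -0.08 without RA late 3. CD163 (0.91) and CLEC12A (0.90) followed that mean most closely. For 10978 other genes, the 95th percentile of the correlation with the mean of the 10 was 0.65, and 0.57 without RA late 3. Besides CSF1R, F13A1 (0.53) and CD14 (0.60) lay below it with all arrays, and CD14 (0.45) and LYZ (0.50) without RA late 3. The pairs of genes were given no such background. The mean signal of the 10 genes lay between 6.79 and 6.91 in RA controls, between 7.43 and 8.27 in RA early HF and at 8.20, 7.72 and 6.78 in RA late HF. It lay between 6.61 and 6.75 in RV controls, between 6.53 and 7.10 in RV early HF and between 7.15 and 7.31 in RV late HF. Among 10978 other genes, those whose deviations correlated most with the mean of the 10 were BPI (0.95), C1QC (0.95), LCP1 (0.95), PPM1M (0.94), NADK (0.94), LOC608625 (0.93), RASA3 (0.93) and H3-3B (0.92). BPI binds lipopolysaccharide, C1QC is a chain of complement C1q, and LCP1 bundles actin in leukocytes. Without RA late 3 the first 5 places held C1QC, BPI, LCP1, NADK and PPM1M (0.95 to 0.90), followed by IL18, JADE1 and TIMD4.

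Of 34 further macrophage genes, 28 were named on the array and 20 were tested. In RA early HF 17 of the 20 differences were positive (45.6% of all genes were positive), with a median of 0.52. With all arrays 0 were called (0.291% of all genes, higher), and without RA late 3 there were 5 calls, all higher (1.63% of all genes). These included the lysosomal protease CTSS (2.12, SE 0.27, adjusted p = 0.00125 by limma), the signalling adaptor TYROBP (1.30, SE 0.29), C1QC (1.40, SE 0.31) and CYBB, the catalytic subunit of the phagocyte oxidase (1.60, SE 0.36). In RA late HF the calls without RA late 3 were 7, led by CTSS (2.27, SE 0.30, adjusted p = 0.00659), TYROBP (1.69), the Fc receptor FCGR1A (1.65) and CYBB (1.80), and with all arrays 0. Over all genes, 1.04% were called higher there without RA late 3, and 0.0182% with all arrays. In RV late HF CTSS alone was called, again only without RA late 3 (1.59, SE 0.27, adjusted p = 0.0267; 0.428 with all arrays). Over all genes, 0.118% were called higher in that comparison without RA late 3.

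Genes that act with the 10 in their pathways were counted in the same way. In the 4 comparisons of a single HF stage with control, between 0% and 1.63% of all genes were called higher in either fit. Of 10 tested growth factors and regulators of the macrophage lineage, among them CSF1 and IL34, 0 were called in any of the 4 HF comparisons in either fit, and the RA early median was 0.01. Of 10 tested genes of the endotoxin receptor pathway 0 were called in those 4 comparisons in either fit, with an RA early median of -0.05. For both RA stages together without RA late 3, TLR4 (0.61, SE 0.16, adjusted p = 0.0399 by limma) and LY86 (0.40, SE 0.11, adjusted p = 0.0454) were called higher (2.89% of all genes). TLR4 had differences of 0.48 in RA early HF and 0.74 (SE 0.20, adjusted p = 0.0673 by limma) in RA late HF without RA late 3, and LY86 had 0.40 in RA early HF. Only 3 of the 8 costimulation partners were tested, CD40, CD274 and PDCD1LG2, and 0 were called in any comparison in either fit. CD80, CD28, CTLA4, CD40LG and ICOSLG lay below the signal limit. Of 8 tested genes of haem and iron handling, 0 were called in the 4 comparisons of a single stage with control in either fit, with FTL, the ferritin light chain, at 0.62 (SE 0.18) in RA early HF. Without RA late 3, FTL was called higher for both RA stages together (0.66, SE 0.16, adjusted p = 0.0292 by limma; 2.89% of all genes), and LRP1 in RA over RV in controls (0.50, SE 0.14, adjusted p = 0.0489; 3.26% of all genes). Of 5 tested genes of coagulation and fibrin, the matrix protein FN1 (1.98, adjusted p = 0.0271) and the transglutaminase TGM2 (1.11, adjusted p = 0.0395) were called higher in RA early HF with all arrays by limma (0.291% of all genes). The mean of the 11 named genes of that list was 6.01 to 6.07 in RA controls and 6.28 to 6.36 in RA early HF. FN1 and TGM2 accounted for that rise, so they do not stand for the list.

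Markers of other cells also differed in these arrays. All 14 tested fibroblast markers had positive differences in RA early HF (45.6% of all genes were positive), with a median of 0.90. Without RA late 3, 8 were called (1.63% of all genes, higher), led by LUM (0.93, SE 0.19, adjusted p = 0.0145 by limma) and COL1A2 (1.74, SE 0.35). With all arrays 0 of the 14 were called (0.291% of all genes, higher). LUM was also called in RV late HF without RA late 3 (1.15, adjusted p = 0.0264; 0.118% of all genes called higher). The mean signal of the 15 fibroblast markers was 8.50 to 8.62 in RA controls and 9.02 to 9.65 in RA early HF. In RA late HF it was 8.09 in RA late 3 and 8.78 and 9.50 in the other arrays. In RV it was 7.85 to 7.96 in controls, 8.12 to 8.34 in early HF and 8.45 to 8.63 in late HF. The 12 cardiomyocyte markers had a median difference of -0.18 in RA early HF, and 2 were called lower without RA late 3 (TNNT2 at -0.42 and RYR2 at -0.83), of which TNNT2 was also called with all arrays. The mean of the 12 cardiomyocyte markers was 12.44 to 12.52 in RA controls and 12.09 to 12.35 in RA early HF. Of the 13 endothelial markers, EMCN (0.80) and PECAM1 (0.76) were called higher in RA early HF without RA late 3 (1.63% of all genes). Of the 8 tested cell division genes TOP2A (1.46, adjusted p = 0.00769 with all arrays) and PCNA (0.75) were called higher there without RA late 3. TOP2A had a mean of 5.37 over all arrays, just above the signal limit, and a signal of 5.21 in RA late 3, below it. TOP2A may thus have passed the filter only through the RA early arrays where it was high. Its call therefore adds no separate support, and the size of its difference is uncertain. The part of these cells in the differences of the 10 genes was not tested.

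Markers of other leukocytes were counted too. Over all genes, between 0% and 1.63% were called higher in the 4 comparisons of a single HF stage with control, in either fit. Of the neutrophil markers, 10 were named and 5 tested, and BPI alone was called, at 2.55 in RA early HF (SE 0.32, adjusted p = 0.00122 by limma without RA late 3 and 0.0223 with all arrays) and, without RA late 3, at 2.06 in RA late HF (adjusted p = 0.0151). In RA early HF S100A8 had 0.43, and MPO, S100A9, LCN2, LTF and MMP8 lay below the signal limit. The mean of the 10 neutrophil markers was 5.31 to 5.40 in RA controls and 5.53 to 5.81 in RA early HF. BPI, at 2.55, made up most of that rise, so the mean does not stand for the list. None of the 7 T and NK cell, 3 B and plasma cell, 4 dendritic cell and 5 mast cell markers tested was called in any HF comparison in either fit. The T and NK markers had a mean of 5.36 to 5.49 in RA controls and 5.41 to 5.49 in RA early HF, and CD3D, CD3G, LCK, CD79A and MS4A1 were among those below the limit.

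**Figure D4:**
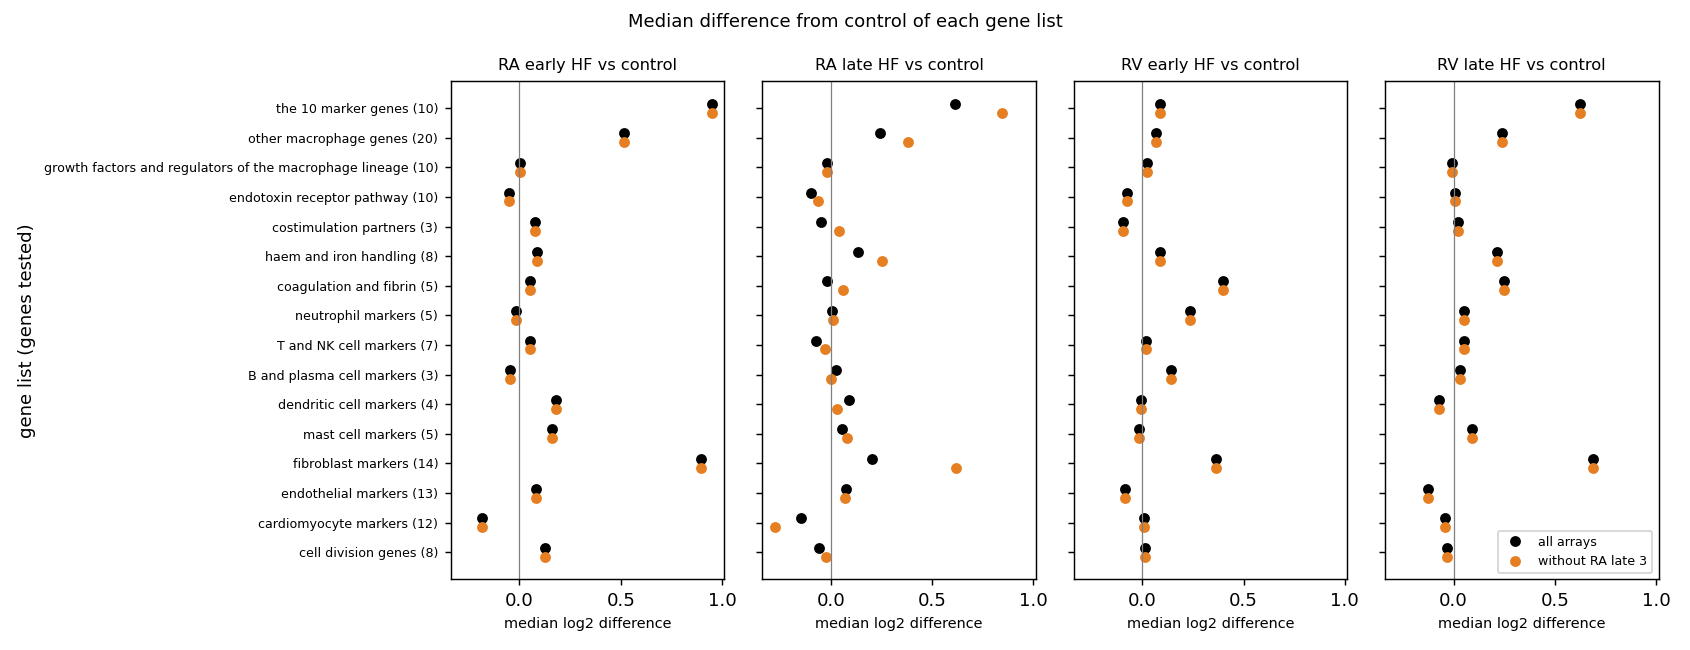
Median log2 difference from control (horizontal axis) of the 10 marker genes and of each list of related genes or cell markers (vertical axis, with the number of genes tested), in the 4 comparisons of HF with control, with all arrays (black) and without RA late 3 (orange). In RA early HF the medians of the 10 genes (0.95) and of the fibroblast markers (0.90) are the largest, followed by that of the other macrophage genes (0.52).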

How the data were processed

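The deposited value table holds log2 signals per probe set; the log base and scale were read from the values, and the submitters' processing notes name MAS5 without version. The authors' array normalization is not given in the sources used here, and none was added. The arrays' 25th, 50th and 75th percentiles differed by at most 0.13 and their 95th by 0.34 (log2), and whether MAS5 scaling alone or a further step across arrays gave this is not known. Of 42924 probe sets (111 control probe sets left out), 29254 had a single gene symbol in the platform annotation. The 40% of lowest mean signal were left out, which left 25752 probe sets and 10988 genes. A model of 6 group means was fitted to 18 arrays with limma 3.58.1 in R 4.3.3 (12 residual degrees of freedom, trended variances, two-sided tests, Benjamini-Hochberg adjustment over 25752 probe sets), and again to 17 arrays without RA late 3 (11 degrees of freedom). The fit was tested on simulated data. The 11 comparisons share control groups, so they are not independent of each other.

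The members, the 15 gene lists (212 genes, 127 tested) and the alternatives were chosen with earlier results of these data known. The text names all 10 members, up to 4 genes of smallest p in each list, the 8 genes most like the members and 8 chamber markers; list genes named for lying below the signal limit, and CSF1 and IL34 as list members, fall outside that rule. Alternatives were the filter, normalization, variance model, array weights, the mean of all probe sets, a replicate block and leaving out single arrays. Replicate numbers were checked as marks of a shared dog. Between chambers, same-numbered control arrays deviated together (r of 0.36, 0.24 and 0.42), as did those of early HF (0.17, 0.26, 0.15). Those of late HF gave 0.05, -0.42 and 0.15. RA late 3 entered the RA late mean there, so these values cannot show whether the late HF arrays were paired. Within a chamber the numbers did not pair the stages (median r -0.01). Between any pair of arrays at least 97.5% of values differed. Figures were drawn with matplotlib 3.10.9. No sequences or coordinates are printed.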

Additional observations from a re-analysis of the deposited data

How the results depend on the processing

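With all arrays 0 of the 10 genes were called in every comparison. The share of all genes called higher under the same setting stands in brackets. In RA early HF the count was 2 with quantile normalization (0.755%), 5 with only the compared groups in the fit (1.5%), 4 with array weights (1.57%) and 1 with the replicate number as a block (0.255%), and 0 to 4 on leaving out single arrays (4 without RA late 3, 1.63%). In RA late HF it was 6 with array weights (4.85%) and 0 to 4 on leaving out single arrays (4 without RA late 3, 1.04%), and for both RA stages together 6 (2.36%) and 0 to 5 (5 without RA late 3, 2.89%). In RV late HF it was 4 with only the compared groups (0.901%) and 1 with array weights (0.728%). In these RA comparisons RA late 3 was the one array whose removal gave calls. Without RA late 3, leaving out a further array was an alternative chosen after seeing the data. It gave 3 to 7 calls in RA early HF (7 without RA early 2, 2.02%) and up to 7 for both RA stages (without RA early 2, 3.32%). For the chamber difference in the early HF effect it gave 0 to 1, the single call coming without RA early 2 (0.0819%). In RA late HF the calls of CD86 and LY96 were lost without RA control 3. Leaving out RA late 1 or RA late 2 as well left 1 array in the RA late group, so the counts of those fits are not given. With both of these arrays kept, none was called for the chamber difference in the late HF effect. The replicate block changed no other count. Numbers did not pair conditions within a chamber, and in late HF the pairing of RA with RV could not be judged.

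Over all genes, comparisons and alternatives with all arrays, 1810 of 1889 differences kept their sign, and 0 of the 79 that did not were called. Among the differences from control, the sign turned with array weights for CSF1R in RA early HF (0.015) and CLEC12A in RV early HF (-0.073), with the mean of all probe sets for F13A1 (0.06) and CLEC12A (-0.067) in RV early HF, and for CD14 in RV early HF with quantile normalization (0.000185) and median centring (0.0033). Leaving out single arrays gave ranges across zero for CSF1R of -0.108 to 0.037 in early HF of RA (the same without RA late 3), -0.053 to 0.082 in its late HF, -0.117 to 0.023 in early HF of RV and -0.017 to 0.143 in its late HF. They also did so for CD68 in RA late HF (-0.062 to 0.258) and RV early HF (-0.04 to 0.135), and in RV early HF for MRC1 (-0.087 to 0.308), F13A1 (-0.243 to 0.257), CLEC12A (-0.242 to 0.283) and CD14 (-0.07 to 0.077). The cause of these shifts was not tested. With 3 arrays per group and no detection calls, precision is limited by their number, and the signals of LY96 in controls lie under the signal limit.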
